A study of Mus musculus with 6 samples.

Results

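Patrolling monocyte genes were followed in tumour-associated macrophages, the macrophages taken out of a tumour, from C57BL/6 mice carrying hepa1-6 tumours implanted orthotopically, that is in the liver. The hepa1-6 line derives from a hepatoma of the mouse. The 6 genes are Nr4a1, Ace, Adgre4, Spn, Eno3 and Pou2f2, chosen by symbol as genes known for their expression in patrolling monocytes, out of 19938 genes with a probe set of their own. Each of the 6 was read by 1 probe set that carries only its symbol. RNA came from cells sorted by flow cytometry and was measured on Affymetrix arrays of the type Mouse Gene 1.0 ST, 3 for vehicle-treated mice and 3 for mice treated with PLX3397. This small molecule blocks the receptor tyrosine kinase CSF1R and, besides it, KIT and FLT3. Both groups share strain, tumour line and implantation site, and no source used here gives the dose, the time on drug, the age of the mice or the sorting gate. The labels call the samples biological replicates and do not say that each came from its own mouse, so p-values measure the spread between these samples, which may be technical. A second name in each sample's description calls the vehicle samples macrophages given LPS and interferon-gamma and the treated ones macrophages given IL4. It disagrees with the titles and was not used.

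Blood monocytes of the mouse fall into classical cells, which carry Ly6C and CCR2 and enter inflamed tissue, and patrolling cells, which have little Ly6C, carry CX3CR1 and crawl along the inside of vessels. Classical cells can turn into patrolling ones, and the orphan nuclear receptor NR4A1 is needed for patrolling cells to form and survive. Both kinds can be found in tumours, where classical monocytes are a main source of macrophages. The 6 genes mark patrolling cells among blood monocytes. Each is also active elsewhere: Nr4a1 is an immediate-early gene of many cells, Ace is expressed by endothelium, Spn by T cells, Eno3 by skeletal muscle and Pou2f2 by B cells.

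For the 3 genes of this set that passed the test between groups, the sequence before the start site is shown. A link between these sequences and the changes was not tested. Each line gives the 250 bases before the start site in RefSeq's GRCm38.p6 annotation, 5′ to 3′ on the strand of the gene. The Nr4a1 sequence is chr15:101266596-101266845 on the plus strand, the Adgre4 sequence chr17:55749734-55749983 on the plus strand and the Pou2f2 sequence chr7:25132461-25132710 on the minus strand. Capitals mark matches on either strand to any of the motifs listed under the sequences except the GC box, which is common and left in lower case.
Nr4a1: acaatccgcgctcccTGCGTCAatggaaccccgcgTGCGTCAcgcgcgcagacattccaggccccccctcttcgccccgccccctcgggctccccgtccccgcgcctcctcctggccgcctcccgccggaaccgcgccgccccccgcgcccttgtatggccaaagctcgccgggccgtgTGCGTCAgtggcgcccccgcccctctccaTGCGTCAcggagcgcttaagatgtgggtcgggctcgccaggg
Adgre4: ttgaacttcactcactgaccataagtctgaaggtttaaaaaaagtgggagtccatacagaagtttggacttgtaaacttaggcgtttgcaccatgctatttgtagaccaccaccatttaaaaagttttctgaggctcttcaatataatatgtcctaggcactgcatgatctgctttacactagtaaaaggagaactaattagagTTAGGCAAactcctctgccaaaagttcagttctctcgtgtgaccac
Pou2f2: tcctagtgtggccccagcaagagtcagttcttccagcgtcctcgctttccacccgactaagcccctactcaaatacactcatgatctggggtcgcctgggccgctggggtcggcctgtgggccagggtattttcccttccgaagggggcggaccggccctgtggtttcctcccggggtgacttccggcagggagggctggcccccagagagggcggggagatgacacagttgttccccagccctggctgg
The motifs searched on both strands were the octamer bound by POU2 factors (ATGCAAAT), the element bound by an NR4A monomer (AAAGGTCA), a CRE-like sequence (TGCGTCA), an AP-1 site (TGANTCA), a PU.1 core (GAGGAAGT), a C/EBP site (TTGCNNAA) and the GC box of SP1-type factors (GGGCGG). Nr4a1 held 4 copies of TGCGTCA, whose first bases lie 235, 215, 71 and 42 bases before the start site. This sequence was added to the search after the Nr4a1 promoter had been seen. It occurred at least 1 time in 540 of 27025 genes with a promoter of this length, and at least 4 times in 1 gene, Nr4a1. Adgre4 held 1 match to the C/EBP site, 46 bases before the start site, a motif present in 10.8% of genes. The GC box, present in 35.4% of genes, occurred 3 times in Nr4a1 (174, 114 and 55 bases before the start site) and 2 times in Pou2f2 (105 and 40 bases before it). Of the 6 genes, Ace also held it, 4 times in its promoter 1 and 0 times in its promoter 2. Pou2f2 had no match to the other motifs in this window. None of the promoters of the 6 genes held the octamer, present in 1.81% of genes, or the NR4A monomer element, present in 1.55%. The Nr4a1 and Pou2f2 windows were rich in G and C (74.4% and 64.8%), the Adgre4 window was not (39.6%), and the median over genes was 52%. A motif match is a description of letters and does not show that a factor binds there.

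The arrays carried the transcripts of macrophages, with 9 of 9 macrophage markers, among them Csf1r, Cd68 and Adgre1 (the F4/80 antigen), above background in both groups. The background of an array was set at the 95th percentile of its 1194 genes for smell and pheromone receptors, and lay between 3.52 and 3.58 on the log2 scale. Array medians were 4.21 to 4.25 in vehicle and 4.32 to 4.35 with PLX3397. Pearson correlations across genes, which are not independent replicates, were 0.992 to 0.996 within PLX3397 and 0.951 to 0.961 between groups. PLX3397 replicate 3 stood apart, where 37 genes exceeded the mean of PLX3397 replicates 1 and 2 by over 2 log2. None of the other 5 arrays had such a gene relative to its own group. Of the 19938 genes, 37.8% passed the limma threshold (Benjamini-Hochberg adjusted p under 0.05), 19.6% as higher and 18.3% as lower with PLX3397, and the groups did not overlap in 49.3%. The lower calls made up 48.3% of all calls as deposited. They made up 65.8% after subtracting each array's median, called centred arrays below. The median change over all genes was 0.04 and -0.07 under these scalings. The macrophage markers differed between the groups, with 2 of 9 higher and 4 lower (66.7% called, beside 37.8% of all genes). Itgam rose by 0.97 and Cd14 by 0.55. C1qa was 3.99-fold lower, and Fcgr1 fell by 0.79, Adgre1 by 0.42 and Mertk by 0.37. Csf1r, Cd68 and Lyz2 did not pass.

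The 6 patrolling monocyte genes did not move together. Adgre4 and Pou2f2 fell with PLX3397, Nr4a1 rose, and Ace, Spn and Eno3 did not pass the test. The 3 that passed are 50% of the set, beside 37.8% of all genes. The median change over the 6 genes was -0.01, beside 0.04 over all genes. All 6 exceeded background on all 3 vehicle arrays, and 5 did so on all 3 PLX3397 arrays. Adgre4 was the exception. In sorted but bulk RNA, fewer cells of a type and less RNA per cell cannot be told apart.

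**Figure D1:**
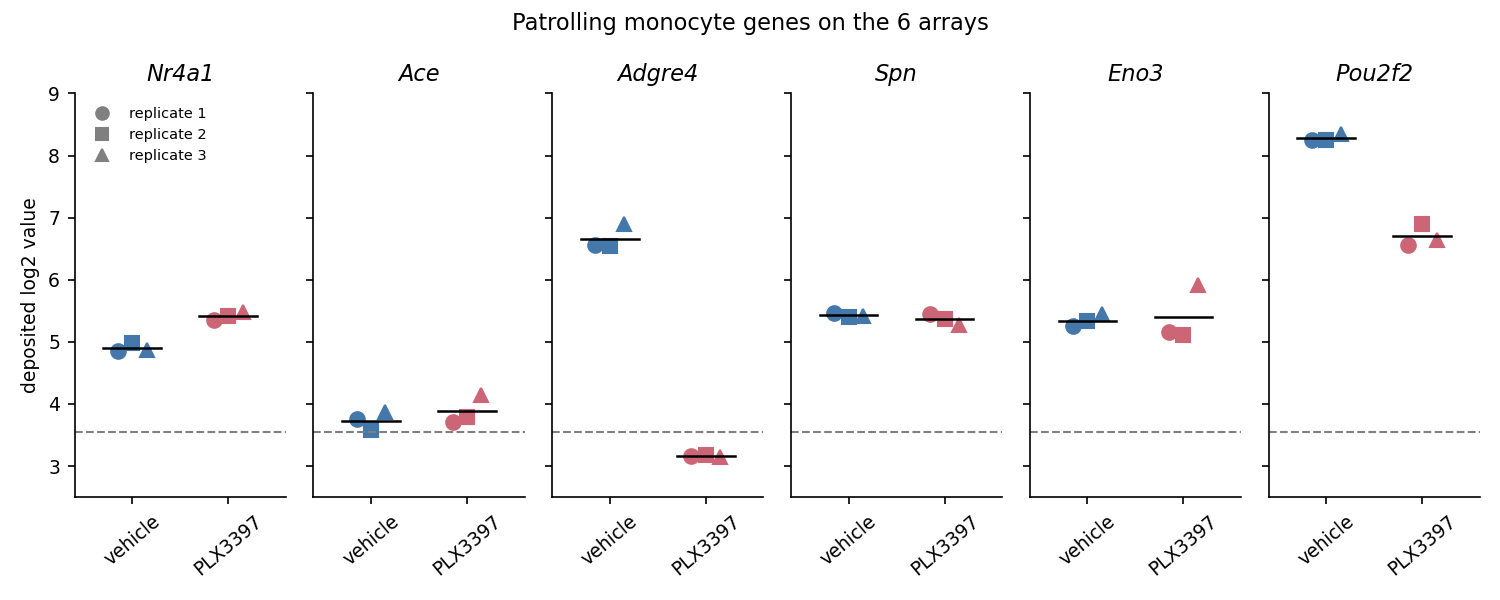
Deposited log2 values of the 6 genes on each array (points, shaped by replicate number), with the group mean (black line) and the mean background level over the 6 arrays (dashed). Adgre4 lies at 6.54 to 6.90 in vehicle and at 3.14 to 3.18, under the dashed line, with PLX3397, while the groups overlap for Ace, Spn and Eno3.

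Nr4a1 encodes an orphan nuclear receptor that is switched on within minutes of many stimuli. Its log2 values were 4.86, 4.98 and 4.86 on the vehicle arrays and 5.35, 5.42 and 5.49 on the PLX3397 arrays. Every PLX3397 array lay above every vehicle array. The mean rose from 4.90 ± 0.07 to 5.42 ± 0.07 (SD, n = 3 per group), a change of 0.52 (SE 0.08, limma adjusted p = 5.50e-04) or 1.43-fold. The direction and the call held in each of 16 alternative settings, with changes of 0.41 to 0.56.

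Of the other NR4A receptors, which bind the same element, Nr4a3 was below background on all vehicle arrays (3.22, 3.28 and 3.25) and read 5.03, 4.50 and 4.72 with PLX3397. It was at least 2.34-fold higher (adjusted p = 6.01e-06). Nr4a2 was 5.21 ± 0.10 and 5.26 ± 0.11 (n = 3 per group, change 0.05, adjusted p = 0.700). The difference between the changes of these paralogues was not tested. In the list of the other NR4A genes and their partners, 2 of 7 measured genes rose and 1 fell. Calls made up 42.9%, beside 37.8% of all genes. Rxra, which encodes a nuclear receptor that can pair with NR4A1, rose by 0.34 (SE 0.10, adjusted p = 0.018) but did not pass with centred arrays (adjusted p = 0.106). It kept its call in 3 of 6 fits that left out 1 array, and the count of rises in this list was 1 without vehicle replicate 2, without PLX3397 replicate 1 or without PLX3397 replicate 2. Rcor1, a subunit of the CoREST corepressor, fell by 0.51 (SE 0.13, adjusted p = 0.0094).

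Pou2f2 encodes OCT2, a transcription factor that binds the octamer element and is best known from B cells. The vehicle arrays read 8.24, 8.25 and 8.35, and the PLX3397 arrays 6.55, 6.91 and 6.64. The groups were more than 1 log2 apart at their nearest points. The mean fell from 8.28 ± 0.06 to 6.70 ± 0.18 (SD, n = 3 per group), a change of -1.58 (SE 0.10, adjusted p = 1.23e-06) or 2.99-fold lower. Falls of at least 1 log2 that passed the test were seen in 4.04% of all genes. Among 6 measured B cell markers, 4 rose and 0 fell (0 also at an unadjusted limma p under 0.05). Of all genes, 19.6% rose and 18.3% fell. Cd22 rose by 1.29 and Cd79b by 0.62. The other 2 of the 4, Cd79a and Ms4a1 (CD20), were below background on all arrays, so that 2 rises remained among genes above background and 1 at a mean level of at least 5. The summed level of the B cell markers was 7.20 to 7.28 in vehicle and 8.22 to 8.26 with PLX3397. Most of this sum came from Cd22 alone, whose mean was 6.47 in vehicle and 7.76 with PLX3397. The part of B cells in the Pou2f2 values was not tested. The other octamer genes measured were Pou2f3 (change -0.17, adjusted p = 0.263) and the coactivator gene Pou2af1 (change 0.28, adjusted p = 0.056), and neither passed. Pou2af1 passed as higher without vehicle replicate 1, without PLX3397 replicate 2 or when only genes above background were tested.

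Adgre4 encodes an adhesion G protein-coupled receptor of the EGF-TM7 family, a relative of the F4/80 antigen. It read 6.55, 6.54 and 6.90 in vehicle and 3.16, 3.18 and 3.14 with PLX3397. All 3 PLX3397 values were below the background of their arrays, so only a bound on the fold can be given. The mean went from 6.66 ± 0.20 to 3.16 ± 0.02 (SD, n = 3 per group), at least 8.55-fold lower (fitted change -3.51, SE 0.10, adjusted p = 8.34e-09). The fitted change is not a measured size, since the PLX3397 values lie at background. The gene passed as lower in each of the 15 alternative settings in which it was tested.

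Other adhesion receptors went both ways, with 2 of 7 measured genes higher and 2 lower (57.1% called, beside 37.8% of all genes). Adgre1, the F4/80 gene, fell by 0.42 (SE 0.08, adjusted p = 0.0025) from 11.81 ± 0.03, a small shift at a high level. Adgrg6 fell by 2.37 (SE 0.11) and Adgrg3 rose by 1.29 (SE 0.14). Adgre5, which encodes the leukocyte antigen CD97, rose by 0.34 (adjusted p = 0.024). That call was lost without any 1 of 5 arrays in turn and with centred arrays (adjusted p = 0.102).

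Spn encodes CD43, a large sialomucin of the leukocyte surface that blood patrolling monocytes carry at a high level. Its values were 5.47, 5.40 and 5.41 in vehicle and 5.44, 5.37 and 5.27 with PLX3397. The ranges overlapped. The change was -0.07 (SE 0.08, 95% interval -0.25 to 0.11, adjusted p = 0.557). T cells also express Spn, and their markers passed the test in 0 of 6 measured genes by limma, beside 37.8% of all genes. At an unadjusted limma p under 0.05, 1 marker passed. Cd3d and Cd3g were below background on all arrays. The summed level of the T cell markers was 6.37 to 6.50 in vehicle and 6.41 to 6.52 with PLX3397, and its part in the Spn values was not tested. Among other sialomucins and the ezrin, radixin and moesin linkers that tie them to actin, 3 of 9 rose and 1 fell. Calls made up 44.4%, beside 37.8% of all genes. Cd164 rose by 1.52, the ezrin gene Ezr by 1.08 and the P-selectin ligand gene Selplg by 0.55, and the radixin gene Rdx fell by 0.64.

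Ace encodes angiotensin-converting enzyme, a peptidase of the cell surface. Its signal was close to background: 3.76, 3.57 and 3.86 in vehicle and 3.71, 3.79 and 4.14 with PLX3397. The highest value was that of PLX3397 replicate 3, and the other 2 PLX3397 values lay inside the vehicle range. The change was 0.15 (SE 0.12, 95% interval -0.13 to 0.43, adjusted p = 0.390), and 0.02 without PLX3397 replicate 3. Endothelial markers moved between the groups, with 5 of 7 higher and 0 lower (0 also at an unadjusted limma p under 0.05). Of all genes, 19.6% were higher and 18.3% lower. The VEGF receptor gene Kdr rose by 1.70 (3.26-fold), Pecam1 3.04-fold and Vwf 2.47-fold, while Tek was below background on all arrays. Cldn5 passed as higher (limma adjusted p = 0.043) but did not pass with centred arrays (adjusted p = 0.175). It kept its call in 2 of 6 fits that left out 1 array. The summed endothelial level was 7.46 to 7.55 in vehicle and 8.80 to 8.84 with PLX3397, and its part in the Ace values was not tested. Of 9 measured genes of the renin-angiotensin and kinin system, 2 rose and 0 fell (0 also at an unadjusted p under 0.05). Calls made up 22.2%, beside 37.8% of all genes. Bdkrb2, a bradykinin receptor gene, rose by 0.84 (SE 0.15) and the aminopeptidase gene Anpep by 0.55 (SE 0.11). Agt, the angiotensinogen gene, did not pass (change 0.25, adjusted p = 0.095).

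Eno3 encodes the beta subunit of enolase, a glycolytic enzyme that is abundant in skeletal muscle. It read 5.26, 5.33 and 5.44 in vehicle and 5.17, 5.11 and 5.92 with PLX3397. The first 2 PLX3397 arrays lay below the vehicle range and replicate 3 above it. With all arrays the change was 0.06 (SE 0.18, 95% interval -0.35 to 0.47, adjusted p = 0.844). Without PLX3397 replicate 3 it was -0.20 (SE 0.09, adjusted p = 0.123). It was -0.053 with all arrays centred, so the sign also depended on the scaling and was not settled. On PLX3397 replicate 3 Eno3 was 0.78 log2 above the mean of the other 2, a step exceeded by 176 of 19938 genes.

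Skeletal muscle markers were highest on the same array. All 7 of the 7 markers had their top value on PLX3397 replicate 3, beside 16.3% of all genes. Mb (myoglobin) read 4.12 and 4.01 on PLX3397 replicates 1 and 2 and 5.65 on replicate 3. Tnnt3, a fast troponin gene, read 5.16, 4.95 and 5.98, and the skeletal actin gene Acta1 6.65, 6.80 and 7.70. Myh1, a fast myosin gene, was below background on all arrays. The summed muscle level was 7.53 to 7.71 in vehicle and 7.84 to 8.70 with PLX3397, and the part of muscle RNA in the Eno3 value was not tested. Between the groups 3 of the 7 muscle markers passed as higher, beside 19.6% of all genes. With centred arrays, without vehicle replicate 2 or without vehicle replicate 3, 0 of 7 passed as higher. Of the other enolases and enzymes of lower glycolysis, 5 of 6 measured genes rose and 0 fell (0 also at an unadjusted p under 0.05). Eno1, Eno1b and Gapdh of this list were not measured. Of all genes, 19.6% rose and 18.3% fell. Pgam1 rose by 0.99, Pgk1 by 0.83, the neuronal-type enolase gene Eno2 by 0.62 and Pkm by 0.59. Pgam2 rose by 0.32 but did not pass with centred arrays (limma adjusted p = 0.104) or quantile normalisation (adjusted p = 0.081).

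**Figure D2:**
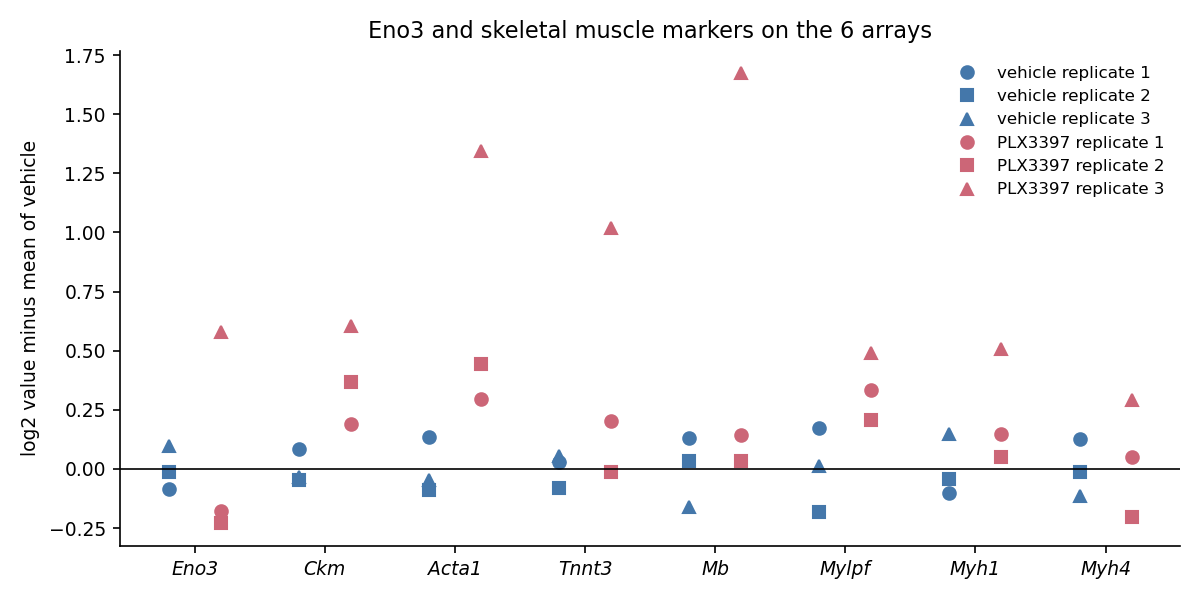
Log2 value minus the vehicle mean for Eno3 and 7 skeletal muscle markers on each array (blue vehicle, red PLX3397, shaped by replicate number). The red triangle, PLX3397 replicate 3, is the top point for each of the 8 genes, including Mb, Acta1 and Tnnt3.

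Further genes known from patrolling monocytes also went both ways. Of 19 measured, 7 rose and 5 fell (63.2% called, beside 37.8% of all genes). The median change was 0.13, beside 0.04 over all genes. The falls included those of Cd300e, an activating receptor of monocytes, by 3.41 (SE 0.20), and Treml4, a receptor for dying cells, by 3.13 (SE 0.11). Treml4 read 7.10, 7.21 and 7.44 in vehicle and 3.98, 4.24 and 4.14 with PLX3397, and Cd300e 10.25, 10.23 and 10.18 against 6.25, 6.98 and 7.20. The other falls were those of Gngt2 (-1.45), the Fc receptor gene Fcgr4 (-1.06) and the LFA-1 subunit gene Itgal (-0.74). The largest rise was that of Itgax (CD11c), from 7.82 ± 0.14 to 10.86 ± 0.18 (change 3.04, SE 0.11), followed by the aspartic protease gene Napsa (2.22), the phosphatase gene Dusp5 (2.22) and the tetraspanin gene Cd9 (1.67).

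Cx3cr1, the chemokine receptor used to recognise patrolling cells, was low in both groups, at 4.37 ± 0.12 and 4.46 ± 0.16 (n = 3 per group, change 0.09, 95% interval -0.13 to 0.32, adjusted p = 0.518). S1pr5, which patrolling monocytes need to leave the bone marrow, was also low, at 4.08 ± 0.06 and 4.19 ± 0.05 (adjusted p = 0.322). For Cx3cr1 and S1pr5 the ranges of the groups overlapped. Fabp4, a fatty acid carrier, did not pass (change 0.93, SE 0.95). PLX3397 replicate 3 read 8.10, against 3.50 and 3.77 on replicates 1 and 2. Without that array Fabp4 fell by 0.56 (adjusted p = 0.0028).

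Classical monocyte genes also went both ways, with 8 of 14 measured genes higher and 4 lower (85.7% called, beside 37.8% of all genes). Their median change was 0.40. Ccr2, which defines classical cells, was below background on all arrays (2.67 ± 0.07 and 3.01 ± 0.16). Its change of 0.34 passed (adjusted p = 0.019) but lies under background and did not pass with centred arrays (adjusted p = 0.110). Mmp8 (5.48), Fn1 (4.55) and Chil3, at least 17.9-fold higher, were the leading rises, and Ms4a4c (-3.36) was the leading fall. The Ly6C genes share their probe sets and were not analysed here. Neither monocyte list therefore moved one way, and nor did all genes, of which 19.6% were higher and 18.3% lower. The 2 lists were not tested against each other.

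**Figure D3:**
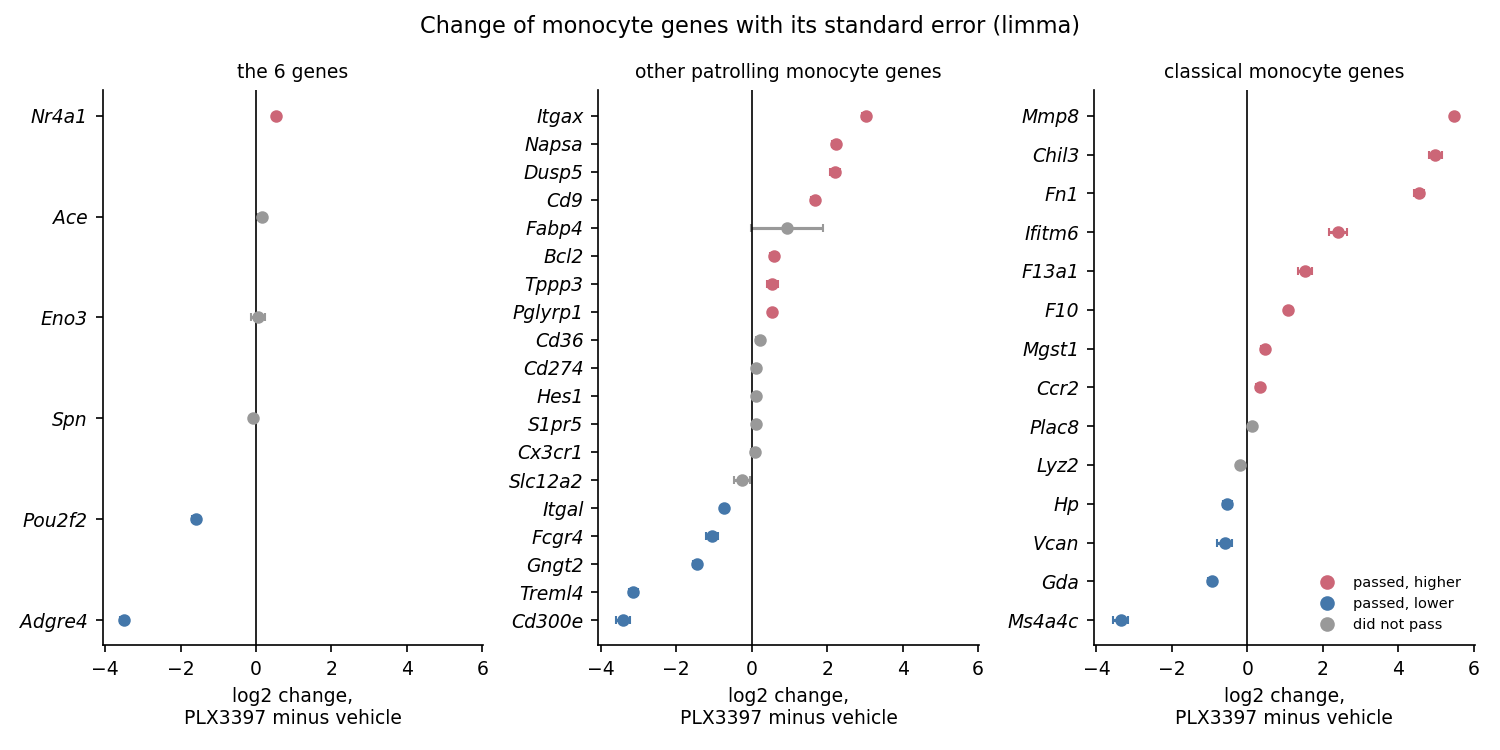
Change in log2 value, PLX3397 minus vehicle, with the limma standard error (bars), for the 6 genes, 19 other patrolling monocyte genes and 14 classical monocyte genes, coloured by whether they passed the threshold. Each panel has points on both sides of 0, with measured changes from -3.41 for Cd300e to 5.48 for Mmp8. Adgre4 and Chil3, below background in 1 group, and Ccr2 and Plac8, below it in both, are drawn at their fitted change.

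Transcription factors and Notch genes that steer monocyte fate were measured in all 14 cases, of which 6 rose and 3 fell. Calls made up 64.3%, beside 37.8% of all genes. With centred arrays 6 fell, and 5 fell when low genes were left out of the test. Cebpb, which patrolling monocytes need, rose from 8.58 ± 0.11 to 9.21 ± 0.05 (change 0.63, SE 0.08, adjusted p = 1.93e-04). Klf2, another factor of patrolling cells, rose by 0.33 (adjusted p = 0.015) but did not pass with centred arrays (adjusted p = 0.104). Irf4, a factor of IL4-activated macrophages and dendritic cells, was below background in vehicle and at least 14.3-fold higher with PLX3397. Irf8, needed for the monocyte lineage, rose by 0.85 (SE 0.10). The largest falls were those of the repressor genes Bcl6 (-2.25, SE 0.11) and Zeb2 (-1.64, SE 0.11), and Spi1, which encodes PU.1, fell by 0.32 (SE 0.08). Notch2, the receptor that supports the step from classical to patrolling cells, did not pass (change -0.24, adjusted p = 0.056) but passed as lower with quantile normalisation (adjusted p = 0.046) and with centred arrays (adjusted p = 0.0097).

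**Figure D4:**
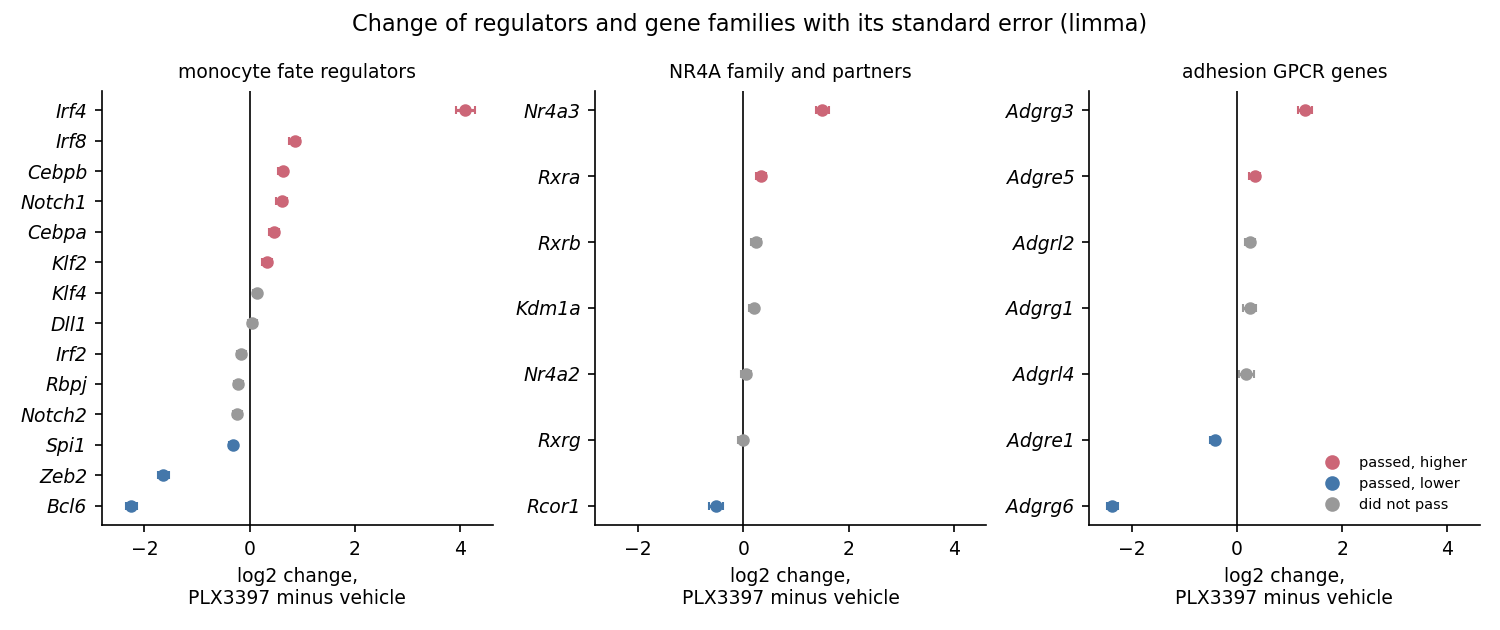
Change in log2 value, PLX3397 minus vehicle, with the limma standard error (bars), for regulators of monocyte fate, the other NR4A genes with their partners, and adhesion receptor genes, coloured by whether they passed the threshold. Irf4 and Nr4a3, both below background in vehicle and drawn at their fitted change, are the rightmost points of their panels, and Bcl6 (-2.25) and Adgrg6 (-2.37) the leftmost of theirs.

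Genes with the most similar pattern to Nr4a1, Ace and Adgre4 over the 6 arrays were found among 13874 genes above background on at least 1 array, leaving out predicted genes. Likeness was the root mean squared difference between log2 values after each gene was centred on its own mean. Nearest to Adgre4 were Itga4, the alpha-4 integrin subunit (0.17), the potassium channel gene Kcnma1 (0.20) and Treml4 (0.21). The PLX3397 mean of Kcnma1 was 3.18, under background. Nearest to Nr4a1 were Klhl21 (0.03), Fam214a (0.03) and Gas1 (0.03), and nearest to Ace were Actn3 (0.04), Krt36 (0.05) and Itih4 (0.06). Krt36 (mean 3.74 in vehicle and 3.90 with PLX3397) and Itih4 (3.69 and 3.80) were, like Ace, close to background. Adgre4 and Nr4a1 were 2.02 apart on the same measure, and Adgre4 and Pou2f2 0.97. With 6 arrays in 2 groups this measure mostly reflects the size of the difference between groups for Adgre4 and Nr4a1. Ace differed by 0.15 between groups, and its PLX3397 replicate 3 lay 0.39 above the mean of replicates 1 and 2. Its likeness therefore also reflects that array.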

How the data were processed

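For 6 arrays the values deposited by the authors are on a log2 scale, with 1 value per probe set. The base is inferred from their range. MAS5 is named, per the submitters' processing notes, without a role, and no source used here gives the summarisation, normalisation or filters. The values were used as deposited. Of 28941 probe sets, 21789 carry exactly 1 symbol in the platform annotation, giving 19938 genes, each represented by the probe set with the highest mean. Differences were tested two-sided with lmFit and eBayes of limma 3.58.1 (R 4.3.3) in a model of group alone, with Benjamini-Hochberg adjustment over all genes. Changes are PLX3397 minus vehicle, and intervals are 95% intervals of that fit.

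The 6 genes, the 17 other lists (146 of 166 memberships measured, all lists counted) and the rule for named genes were chosen with earlier results of these data known. That rule took the 6 genes, 16 fixed genes, up to 4 called genes of each list with the largest change, and the 3 genes nearest to Nr4a1, Ace and Adgre4. Other list genes named here (among them Gngt2, Fcgr4, Itgal, Cd9, S1pr5, Fabp4, Agt, Notch2, Irf8, Spi1 and the marker genes) were chosen after their values were seen. A list's summed level is log2 of the sum of its linear values on an array. NK cell markers passed in 0 of 6 cases by limma (1 at an unadjusted p under 0.05). Neutrophil markers passed as higher in 2 of 7 cases (S100a8, and Ly6g, which is below background on all arrays) and as lower in 1 (Csf3r). The higher count ran from 1 to 3 over the alternatives, and Ly6g did not pass with centred arrays (adjusted p = 0.092) or in 3 of 6 fits that left out 1 array. Hepatocyte and hepatoma markers rose in 1 of 5 cases (Trf, 2.85). Of all genes, 19.6% passed as higher and 18.3% as lower. Precision is limited by having 3 arrays per group, and an exact permutation test of 1 gene could not go below p = 0.1. Tested on simulated data of this comparison with 19938 genes, the fit recovered 49.3% of 67 genes with a shift of 0.5 log2. For 1 log2 it found 95.5% of 67 genes, and for 2 log2 100% of 66. In the simulated data 168 genes passed, beside 7539 in the deposited data. The Benjamini-Hochberg cutoff depends on how many genes pass, so these percentages hold for the simulated data only. Recovery with as many changed genes as in the deposited data was not tested.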

Additional observations from a re-analysis of the deposited data

How the results depend on the processing

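Over 16 alternative settings the 6 genes gave 93 values, of which 90 kept their direction and their side of the threshold. The 3 that did not were all changes of Eno3, which never passed the threshold: -0.053 with centred arrays (adjusted p = 0.850), -0.015 with array weights (adjusted p = 0.955), and a range of -0.20 to 0.20 when 1 array was left out, with -0.20 without PLX3397 replicate 3. Centring lowers every change by the same amount, since array medians were higher with PLX3397, and this turned the first. The cause of the second was not tested. The count of the 6 genes that fell was 2, and 1 where genes needed a mean level of at least 5, since that filter removes Adgre4. Ace was not tested with a mean level of at least 4 or 5. With the replicate number as a block 7154 genes passed, against 7539 without it, and the calls of the 6 genes were the same. With this block Pou2af1 passed as higher (adjusted p = 0.046). Deviations of same-numbered arrays had correlations of -0.01, 0.01 and -0.01, so no effect shared by same-numbered arrays was seen. This cannot exclude that they share a day or batch, which the labels do not state. Counts over the 17 other lists moved by over 1.5 times in 38 of 544 cases. Signal over background limits Ace, Adgre4 with PLX3397, Ccr2 and Nr4a3 in vehicle, whose changes are compressed or bounds.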
